A study of Mus musculus with 6 samples.

Results

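Cadherins and protocadherins were followed in bulk RNA sequencing of hippocampal neurospheres, which are floating clusters grown from dividing neural cells. The genes taken were those whose symbol is Cdh followed by a number, or begins with Pcdh, and whose mean normalized count over the 6 libraries was at least 10. Of 93 rows with such a symbol, 79 met this, among 16852 genes tested and 54532 gene rows. They comprised 17 numbered cadherins, 51 clustered protocadherins (10 alpha, 20 beta and 21 gamma) and 11 other protocadherins. Just inside the minimum stood Pcdha6 with a mean of 13.4 and Cdh12 with 13.8, and just outside it Cdh15 with 9.15 and Pcdhb12 with 8.49. The 14 rows below the minimum were those of Cdh1, Cdh3, Cdh15, Cdh16, Cdh17, Cdh26, Pcdh12, Pcdha1, Pcdha4, Pcdha8, Pcdhb1, Pcdhb12, Pcdhga10 and a second row named Pcdha11. The last 2 were listed at 0 in every library.

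The FGF13cko group carried the hGFAPCre transgene and a floxed Fgf13 on the only X chromosome (Fgf13 flox/y), and the CTRL group was made of littermates with hGFAPCre and an intact Fgf13 (Fgf13+/y). Every library therefore came from males that express Cre, in which recombination is limited to cells where the human GFAP promoter was active. The mice were newborn (P0) C57BL/6. Hippocampal cells from 1 mouse were spread over 2 wells in medium with 20 ng/ml of both FGF-2 and EGF, and harvest was on day 7. There were 3 libraries per group. The labels do not say that each came from a separate mouse, so p-values measure only the spread between these libraries. FGF13 is an intracellular FGF homologous factor known for binding sodium channels and microtubules.

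Cadherins are calcium-dependent adhesion proteins. Classical cadherins bind the same type on the neighbouring cell and are tied to actin by catenins. In the clustered protocadherins of the alpha and gamma groups, 1 variable exon, chosen through its own promoter, is joined to constant exons. Beta members are single-exon genes. Combinations of these isoforms give neurons a surface identity used in self-recognition. The other, delta-type protocadherins are mostly separate genes with patterned expression in the brain.

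The libraries held 22191718 to 24531400 reads assigned to genes. Fgf13 itself was at 201, 239 and 332 normalized counts in FGF13cko and at 480, 651 and 276 in CTRL libraries 1 to 3, so FGF13cko 3 lay above CTRL 3 (log2 change -0.81, limma adjusted p = 0.134). The cell type on the labels is neural progenitor. The 9 progenitor markers listed were all detected, with sums of 189845 to 201555 in FGF13cko and 137115 to 153411 in CTRL. Those sums rest on abundant members, with a highest mean of 60388 and a median of 8989. By sign, 6 of the 9 changes were negative and 3 positive, with a median of -0.35. By limma 3, Sox2, Pax6 and Hes5, were lower in FGF13cko (33.3%, beside 7.08% of all genes) and 0 higher. With the replicate number as a block, 4 were lower and 2 higher. The replicate 3 libraries of both groups stood apart from the other 4: mitochondrial reads made up 4.05% of FGF13cko 3 and 4.14% of CTRL 3, against 2.28% to 2.36% in the other FGF13cko and 1.46% to 1.48% in the other CTRL libraries.

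Changes are given as log2 of FGF13cko over CTRL, on the scale of log2(normalized count + 1), and a gene passed when its limma p, adjusted over all 16852 genes, was under 0.05. By that rule 14.6% of all genes were called, 7.55% higher and 7.08% lower in FGF13cko. Of the 79 members, 19 rose and 2 fell (26.6%), and the median change was 0.62, against 0.02 over all genes tested. Without Cdh5 and Pcdha6, which reached the minimum in FGF13cko alone, 18 of 77 rose and 2 fell, with a median of 0.56. By class, clustered protocadherins counted 12 higher and 0 lower of 51, with a median of 0.73. Numbered cadherins counted 4 higher and 0 lower of 17, with a median of 0.41. Other protocadherins counted 3 higher and 2 lower of 11, with a median of -0.22. The 3 FGF13cko values lay wholly above the 3 CTRL values for 43 members and wholly below for 6. Of all genes 39.4% were without overlap, 20.6% above and 18.7% below. With the replicate number as a block, which called 30.0% of all genes, 16.2% higher and 13.9% lower, the 79 members counted 33 higher and 5 lower.

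**Figure D1:**
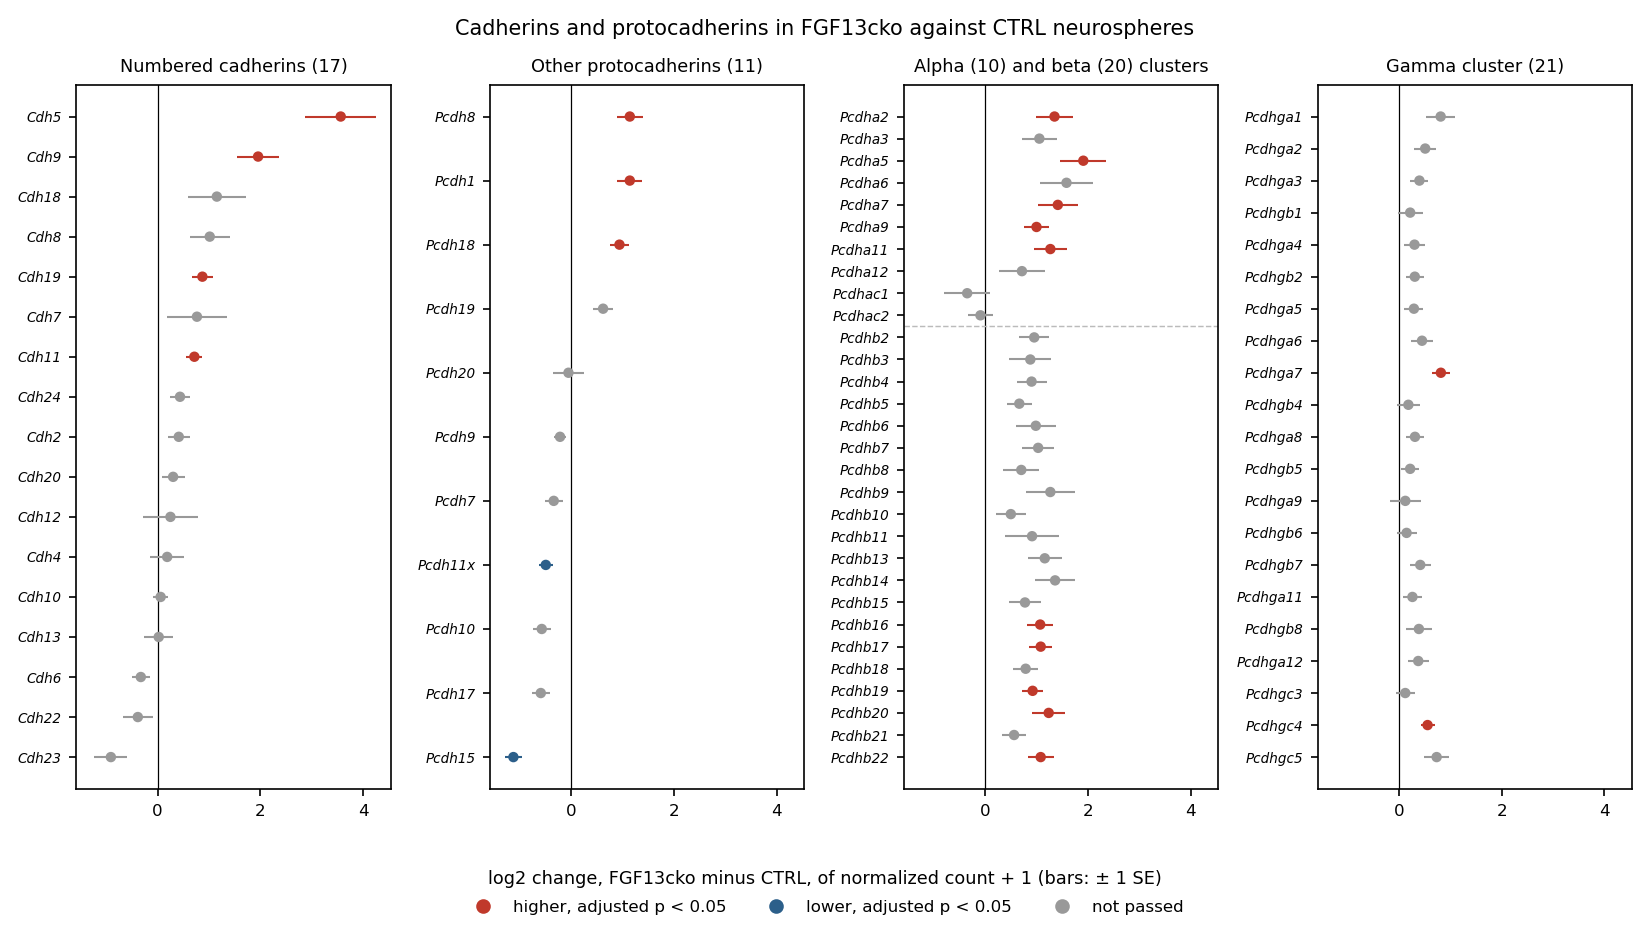
Log2 change of FGF13cko over CTRL (horizontal axis) for each of the 79 members, grouped by class; each point is 1 gene with a bar of 1 SE, and its colour shows whether it passed limma's test. All 20 beta and all 21 gamma members lie to the right of 0, while the other protocadherins spread to both sides, from -1.13 to 1.14.

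Per kilobase of exon not shared with another gene, a scale that allows levels of different genes to be set side by side, Pcdhgc3 stood at 1250 ± 181 (SD over the 6 libraries). That value divides all its reads by the 33.1% of its exon bases that are unshared, and over all its exon bases it was 414 ± 59.9, below 4 numbered cadherins, so its place in the order depends on how reads in shared exons were counted. Cdh20 was at 803 ± 179, Cdh2 at 723 ± 148, Cdh4 at 720 ± 193, Cdh22 at 485 ± 157, Cdh13 at 403 ± 97.6 and Pcdh10 at 261 ± 65.4. The places of Cdh20, Cdh2 and Cdh4 in that order were closer than their spread. In raw normalized counts the numbered cadherins made up 50.9% to 55.4% of all member counts in FGF13cko and 44.0% to 53.9% in CTRL, while the clustered protocadherins made up 20.3% to 22.3% in FGF13cko and 15.5% to 20.3% in CTRL.

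The clustered protocadherins lie side by side on chr18:36930184-37841873 (GRCm38), in the order alpha, beta, gamma. Their summed normalized count was 9810, 10454 and 9761 in FGF13cko libraries 1 to 3, against 7675, 7492 and 7254 in CTRL libraries 1 to 3, a ratio of 1.34. All FGF13cko sums were above all CTRL sums. Of the 51 genes, 49 had a positive change. The groups did not overlap for 33, all 33 higher in FGF13cko, where 20.6% of all genes lay above. No clustered member fell in limma, and 0 had a lower level at an unadjusted p under 0.05, as was so in edgeR and in DESeq2. These are bulk samples, in which more cells of a type and more RNA per cell cannot be told apart.

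**Figure D2:**
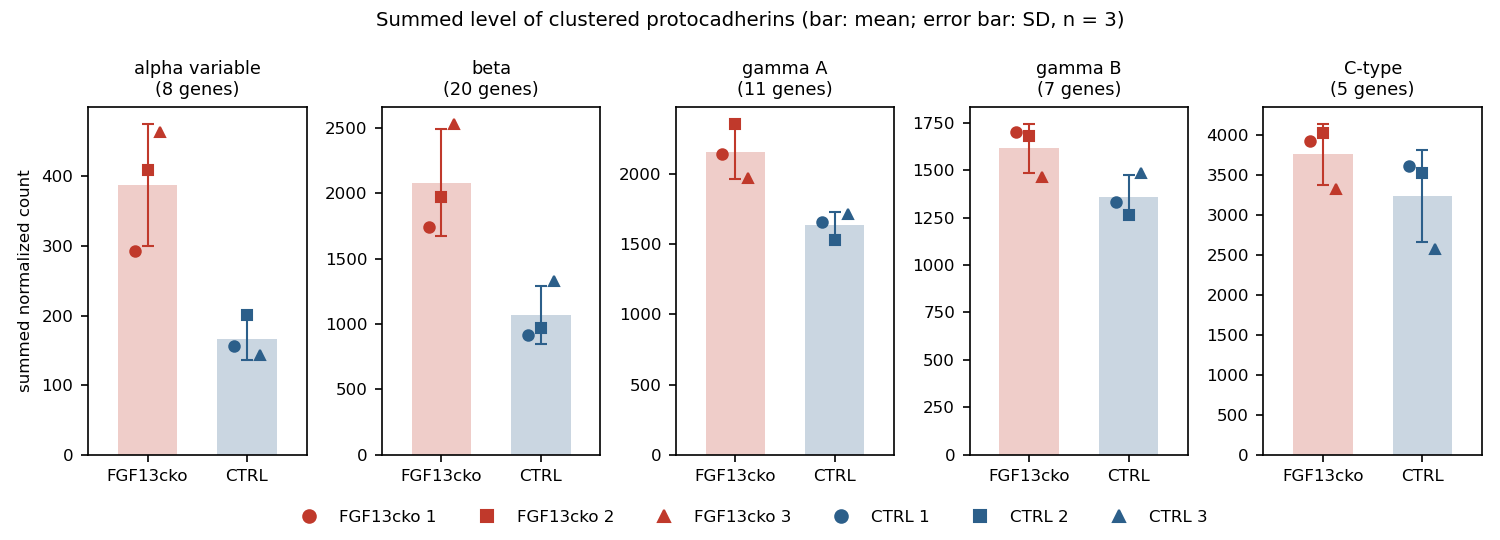
Summed normalized counts (vertical axis, from 0) of the alpha variable, beta, gamma A, gamma B and C-type (alpha and gamma) genes, with 1 point per library, bars for group means and error bars for the SD (n = 3), FGF13cko left of CTRL. The beta sums run from 1743 to 2534 in FGF13cko and from 912 to 1327 in CTRL, with no overlap.

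The beta genes, single-exon protocadherins of the middle cluster, were all at a higher mean level in FGF13cko. Their summed count was 1743, 1970 and 2534 in FGF13cko libraries 1 to 3, against 912, 970 and 1327 in CTRL libraries 1 to 3, with means of 2082 ± 407 and 1070 ± 224 (SD, n = 3 each). All 20 changes were positive, from 0.50 to 1.36 with a median of 0.94. Of the 20, 15 did not overlap between groups, all 15 higher, where 20.6% of all genes lay above. Limma passed 5 of the 20: Pcdhb16, Pcdhb17, Pcdhb19, Pcdhb20 and Pcdhb22. With the replicate block 14 passed as higher (70.0%, beside 16.2% of all genes). The share of the beta genes in all clustered counts was 17.8%, 18.8% and 26.0% in FGF13cko, against 11.9%, 12.95% and 18.3% in CTRL libraries 1 to 3, and CTRL 3 lay between the first 2 FGF13cko libraries.

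The most abundant of the 5 were Pcdhb22 and Pcdhb19. Pcdhb22 was at 178, 235 and 251 in FGF13cko and at 82.4, 94.6 and 141 in CTRL libraries 1 to 3 (log2 change 1.08, SE 0.26, limma adjusted p = 0.0294). Pcdhb19 was at 224, 173 and 239 in FGF13cko and at 101, 103 and 129 in CTRL (0.92, SE 0.21, limma adjusted p = 0.0266). In both genes every FGF13cko library was above every CTRL library. Pcdhb17 was at 146, 178 and 218 in FGF13cko and at 72.2, 86.5 and 94.1 in CTRL (1.08, SE 0.23, limma adjusted p = 0.02003). Pcdhb16 was at 98.4, 107 and 157 in FGF13cko and at 49.8, 62.4 and 55.6 in CTRL (1.07, SE 0.25, limma adjusted p = 0.0288). Pcdhb20 was at 119, 158 and 184 in FGF13cko and at 63.1, 43.3 and 94.1 in CTRL (1.24, SE 0.32, limma adjusted p = 0.0384). Pcdhb14 had the largest beta change, 1.36, at 108, 129 and 137 in FGF13cko and 24.4, 64.4 and 68.8 in CTRL, and missed the threshold (limma adjusted p = 0.0547, and 0.0082 with the replicate block). Replicate 3 was the highest FGF13cko library for most beta genes, as in Pcdhb11, at 52.1, 61.7 and 150 in FGF13cko and 24.4, 35.2 and 80.9 in CTRL. Its groups overlapped, while each FGF13cko library was above the CTRL library of the same number (0.91, limma adjusted p = 0.273, and 0.0261 with the replicate block).

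**Figure D3:**
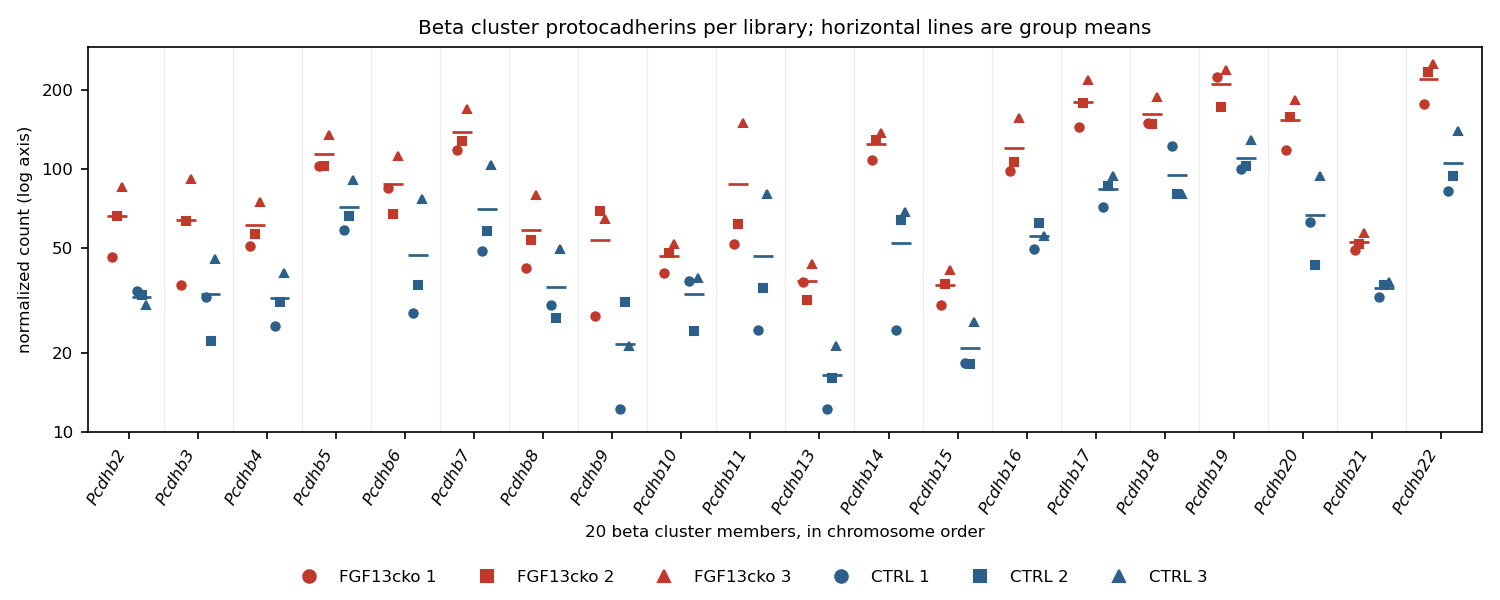
Normalized counts (log axis) of the 20 beta protocadherins in order along the chromosome, with 3 FGF13cko points left of 3 CTRL points per gene and lines for group means. The FGF13cko points lie above the CTRL points without overlap for 15 genes, where 20.6% of all genes lay above.

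The alpha genes split by kind. The 8 variable genes of the cluster, from Pcdha2 to Pcdha12, were low, with sums of 292, 409 and 464 in FGF13cko and 156, 200 and 144 in CTRL libraries 1 to 3 (ratio 2.33), and no overlap. All 8 changes were positive, with a median of 1.31. By limma 5 passed (62.5%, beside 7.55% of all genes called higher): Pcdha2, Pcdha5, Pcdha7, Pcdha9 and Pcdha11. Pcdha6, which did not pass, reached the minimum through its FGF13cko libraries alone, with means of 20.999 in FGF13cko and 5.73 in CTRL. Without it the 7 others had a median of 1.27 and a summed ratio of 2.28. Pcdha5 was at 45.2, 73.3 and 58.0 in FGF13cko and at 21.4, 20.1 and 7.08 in CTRL (1.91, SE 0.45, limma adjusted p = 0.0288). Pcdha9 was at 70.8, 75.3 and 97.6 in FGF13cko and at 38.7, 42.3 and 38.4 in CTRL (0.999, SE 0.24, limma adjusted p = 0.0309). Pcdha11 was at 33.4, 33.8 and 34.8 in FGF13cko and at 18.3, 12.1 and 11.1 in CTRL (1.27, SE 0.32, limma adjusted p = 0.0370).

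The C-type alpha genes, known for expression without the random promoter choice of the other variable exons, did not pass. Pcdhac2, the most abundant alpha gene, was at 271, 343 and 372 in FGF13cko and at 405, 421 and 247 in CTRL (log2 change -0.09, SE 0.24, limma adjusted p = 0.826). CTRL 3 was the lowest of the 6. Without both replicate 3 libraries the Pcdhac2 change was -0.43 (limma adjusted p = 0.0441). That fit rests on replicates 1 and 2, which lay close together within each group. Their read counts differed by a chi-square per gene of 7.51 in CTRL and 11.2 in FGF13cko, against 42.5 to 143 for pairs with replicate 3. The fit also called more of all genes, so its adjusted p-values are not on a par with those of all 6 libraries. Pcdhac1 was at 7.87, 12.5 and 19.3 in FGF13cko and at 13.2, 24.2 and 13.1 in CTRL (-0.35, limma adjusted p = 0.631).

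Gamma genes held most of the clustered counts and had the smallest median change of the 3 clusters. Their sum was 7496, 7719 and 6372 in FGF13cko, against 6188, 5877 and 5524 in CTRL libraries 1 to 3, a ratio of 1.23. All 21 changes were positive, with a median of 0.31. Of these, 11 genes did not overlap between groups, all 11 higher, where 20.6% of all genes lay above. By limma 2 passed as higher, a share of 9.52%, near the 7.55% of all genes. With the replicate block 3 passed as higher, a share of 14.3%, against 16.2% of all genes. The gamma A genes had a median of 0.37 with 1 of 11 passed, and the gamma B genes a median of 0.22 with 0 of 7 passed by limma. Pcdhga7 was at 247, 251 and 231 in FGF13cko and at 126, 137 and 151 in CTRL (0.82, SE 0.17, limma adjusted p = 0.0198), and its neighbours Pcdhga6 and Pcdhgb4 had 0.45 and 0.18.

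Among the C-type gamma genes, Pcdhgc3 showed little difference, at 2567, 2514 and 2016 in FGF13cko and 2473, 2349 and 1738 in CTRL (0.12, SE 0.18, limma adjusted p = 0.681). Its share of all gamma counts was 34.2%, 32.6% and 31.6% in FGF13cko, against 40.0%, 40.0% and 31.5% in CTRL libraries 1 to 3, with CTRL 3 level with FGF13cko 3. Pcdhgc4, the isoform known in mice for the survival of neurons, was at 563, 605 and 551 in FGF13cko and at 394, 402 and 372 in CTRL (0.56, SE 0.14, limma adjusted p = 0.0338), with no overlap. Pcdhgc5 was at 523, 557 and 365 in FGF13cko and at 332, 334 and 208 in CTRL (0.73, SE 0.25, limma adjusted p = 0.0863, and 0.0073 with the replicate block). Both genes were lowest in replicate 3 of each group.

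Annotated exons bear on how far alpha and gamma genes can be told apart. Alpha and gamma members share their constant exons. Exon bases that lie in no exon of another gene, on either strand, made up 26.4% to 68.5% of a gamma gene. For an alpha gene they made up 35.1% to 51.4%. For beta genes this share was 90.3% to 100%. How reads in shared exons were counted is not given in the sources used here, and beta genes are close copies of each other, so reads could be split between them. Within 500 kb outside the locus, 25 tested genes that are not members had a median change of 0.06, with 2 higher, Rnf14 (0.76) and Gnpda1 (1.13), and 1 lower, Tmco6 (-0.92), and with the replicate block 5 were higher and 2 lower. The 15 genes before the locus had a summed ratio of 1.03. The 10 after it had a summed ratio of 1.32 and a median change of 0.24, with sums of 12081, 12071 and 11600 in FGF13cko and 9926, 9782 and 7302 in CTRL libraries 1 to 3, without overlap. Of the 6 other tested genes inside it, 0 passed by limma and 1 with the replicate block, and their median was 0.10. Taf7, a general transcription factor subunit, lies between the beta and gamma clusters and had a change of 0.15 (limma adjusted p = 0.720).

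The count of clustered genes that passed depended on single libraries, and the count over all genes moved widely in the same fits. The clustered count was 0 without CTRL 1, without FGF13cko 2 or without FGF13cko 3. There 21, 21 and 19 clustered genes had an unadjusted limma p under 0.05. The clustered count was 3 without CTRL 2 or without FGF13cko 1, and 19 without CTRL 3. All 12 genes kept a positive change in these fits. The calls of Pcdha5, Pcdha9, Pcdha11, Pcdhb16, Pcdhb17, Pcdhb19, Pcdhb22, Pcdhga7 and Pcdhgc4 were each lost without CTRL 1, FGF13cko 2 or FGF13cko 3, with limma adjusted p up to 0.157. Those of Pcdha9, Pcdha11, Pcdhb19, Pcdhga7 and Pcdhgc4 were also lost without FGF13cko 1 or CTRL 2 and held in 1 of 6 fits. Pcdhb17 held in 3, and Pcdha5, Pcdhb16 and Pcdhb22 in 2. The replicate block gave 24 clustered genes, where it called 30.0% of all genes against 14.6% without it. Leaving out both replicate 3 libraries gave 24 higher and 1 lower. That fit also called more of all genes.

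Markers of other cell types are set beside the 7.55% of all genes called higher and the 7.08% called lower. In lists of this length 1 call makes a large share. Of 10 young neuron markers 6 were higher and 0 lower by limma, with sums of 30772, 36904 and 43033 in FGF13cko and 23537, 25585 and 19718 in CTRL libraries 1 to 3. All 5 Cajal-Retzius markers were higher, with sums of 4615, 4329 and 7095 in FGF13cko and 872, 1078 and 1447 in CTRL. Astrocyte markers counted 1 of 7 higher (14.3%), with 4 changes positive and 3 negative. Microglia and macrophage markers counted 1 higher of 6 tested (16.7%), with all 6 changes positive. Their sums over the 9 listed were 215, 306 and 156 in FGF13cko and 89.5, 82.5 and 112 in CTRL, without overlap. Choroid plexus and ependymal markers counted 2 higher of 3 tested, Foxj1 and Ccdc153, with sums over the 7 listed of 1702, 1422 and 1551 in FGF13cko and 801, 554 and 921 in CTRL, and Tmem212 was at 0 in every library. The part of these cells in the values of the protocadherins was not tested.

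Among the other protocadherins, the delta types comprise delta-1 (Pcdh1, Pcdh7, Pcdh9, Pcdh11x) and delta-2 (Pcdh8, Pcdh10, Pcdh17, Pcdh18, Pcdh19), which differ in the conserved motifs of the cytoplasmic tail. Pcdh15 and Pcdh20 were counted apart. The 250 bases before the RefSeq start are shown for 3 called genes of this class, since 2 of them rose and 1 fell (RefSeq, GRCm38.p6). Capitals mark the E-box CANNTG, the general binding motif of helix-loop-helix factors. The windows are chr10:73821617-73821866 on the plus strand for Pcdh15, chr14:79771313-79771562 on the minus strand for Pcdh8 and chr3:49757317-49757566 on the minus strand for Pcdh18. The Pcdh15 window lies inside the annotated gene, which GENCODE starts further upstream, at chr10:73099342-74649737.
Pcdh15: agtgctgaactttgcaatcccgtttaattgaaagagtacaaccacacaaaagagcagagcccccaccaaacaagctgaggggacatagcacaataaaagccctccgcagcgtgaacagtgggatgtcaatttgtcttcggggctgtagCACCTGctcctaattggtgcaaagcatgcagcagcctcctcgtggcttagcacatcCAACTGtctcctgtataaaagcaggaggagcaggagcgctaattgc
Pcdh8: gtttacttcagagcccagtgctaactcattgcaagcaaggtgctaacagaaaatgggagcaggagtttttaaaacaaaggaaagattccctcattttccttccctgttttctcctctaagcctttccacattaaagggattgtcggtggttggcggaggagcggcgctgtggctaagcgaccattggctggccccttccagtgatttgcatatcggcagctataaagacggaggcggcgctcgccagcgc
Pcdh18: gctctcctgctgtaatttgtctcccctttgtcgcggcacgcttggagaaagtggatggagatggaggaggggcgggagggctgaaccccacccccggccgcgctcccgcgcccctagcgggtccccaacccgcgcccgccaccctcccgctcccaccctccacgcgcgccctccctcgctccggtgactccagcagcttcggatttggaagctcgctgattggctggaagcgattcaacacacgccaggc
Pcdh15 held 2 E-boxes, 1 of them CACCTG, and Pcdh8 and Pcdh18 held none. Searched on both strands in windows of this length, CANNTG was present in 66.2% of 32851 RefSeq windows and in 11 of the 20 members matched. A member counted if any of its windows held the motif, and Cdh7 and Pcdh9 had more than 1 window. CAGGTG, which reads CACCTG on the other strand and overlaps with CANNTG, was present in 17.2% of windows and 2 members. GGGCGG was present in 32.7% of windows and 8 members, among them Pcdh18.

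Pcdh15, known as a tip-link protein of hair cells and also as a gene of oligodendrocyte precursors, had the largest fall of all members. It was at 491, 539 and 613 in FGF13cko and at 1103, 1063 and 1452 in CTRL libraries 1 to 3 (log2 change -1.13, SE 0.17, limma adjusted p = 0.0076), and every FGF13cko value was below every CTRL value. Only the fit without FGF13cko 2 missed the threshold (limma adjusted p = 0.0506). Oligodendrocyte lineage markers moved the same way in part: 2 of 9 fell, Sox10 and Gpr17, and none rose. Sox10, a transcription factor of the lineage, was at 643, 758 and 1181 in FGF13cko and 2606, 2026 and 4971 in CTRL, and Gpr17, a receptor of premyelinating cells, at 295, 329 and 543 in FGF13cko and 1627, 1249 and 4305 in CTRL. The summed level of all 9, which is dominated by abundant members, ran from 58741 to 75082 in FGF13cko and from 49312 to 73610 in CTRL, with overlap. Their part in the Pcdh15 value was not tested.

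Of the delta-1 genes, Pcdh1 rose, and Pcdh11x fell. Pcdh1, best known as an epithelial adhesion protein, was at 1808, 2469 and 2458 in FGF13cko and at 1127, 1287 and 709 in CTRL (1.14, SE 0.24, limma adjusted p = 0.0212), and all FGF13cko values were higher. Its gene lies after the gamma genes, at chr18:38185914-38212053, within 500 kb of the end of the clustered locus. As a member it was left out of the 25 genes counted outside that locus. Pcdh11x, an X-linked protocadherin, was at 422, 408 and 438 in FGF13cko and at 557, 599 and 638 in CTRL (-0.50, SE 0.14, limma adjusted p = 0.0489). Pcdh9 had a change of -0.22 without overlap and did not pass, at 1206, 1275 and 1297 in FGF13cko and 1478, 1396 and 1531 in CTRL. Pcdh7 had a change of -0.34, with overlap.

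Of the 5 delta-2 genes, 2 rose (40.0%, beside 7.55% of all genes called higher). Pcdh8, the protocadherin known as arcadlin for its induction by neuronal activity, was at 286, 436 and 563 in FGF13cko and at 178, 205 and 179 in CTRL (1.14, SE 0.25, limma adjusted p = 0.0241). Pcdh18 was at 288, 267 and 229 in FGF13cko and at 125, 160 and 124 in CTRL (0.94, SE 0.19, limma adjusted p = 0.0189). The groups did not overlap in either gene. Pcdh10 and Pcdh17 were the most abundant delta-2 genes and had changes of the opposite sign, which missed the threshold in limma without a block and passed with the replicate block, in edgeR and in DESeq2. Pcdh10, an axon guidance protocadherin, was at 3714, 3489 and 2721 in FGF13cko and at 5568, 4925 and 4269 in CTRL (-0.58, SE 0.18, limma adjusted p = 0.0637, and 0.0076 with the block). Pcdh17, a synaptic protocadherin, was at 1626, 1980 and 1632 in FGF13cko and at 3133, 2683 and 2158 in CTRL (-0.60, limma adjusted p = 0.0577, and 0.0135 with the block). Pcdh19, whose mutation causes an X-linked epilepsy, was at 736, 866 and 667 in FGF13cko and at 521, 578 and 390 in CTRL (0.62, limma adjusted p = 0.0675, and 0.0105 with the block).

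**Figure D4:**
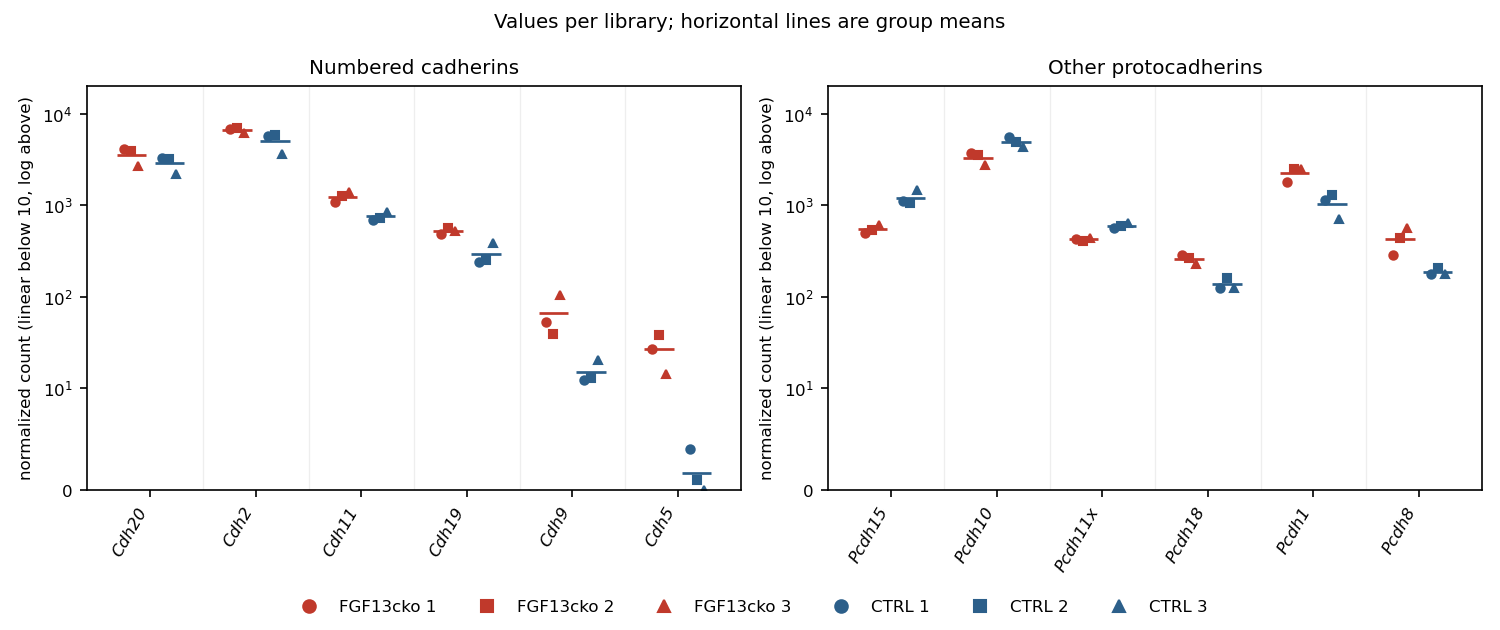
Normalized counts (log axis above 10, linear below) for the called genes outside the clusters and for the abundant Cdh2, Cdh20 and Pcdh10, with 1 point per library and lines for group means, FGF13cko left of CTRL. Pcdh15 runs from 491 to 613 in FGF13cko, below its CTRL range of 1063 to 1452, and Cdh11 from 1079 to 1379, above 682 to 849 in CTRL.

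The calls of Pcdh1 and Pcdh8 were lost without FGF13cko 2, FGF13cko 3 or CTRL 1, with limma adjusted p up to 0.102 for Pcdh1 and up to 0.108 for Pcdh8. The call of Pcdh18 was lost without FGF13cko 1, FGF13cko 2 or CTRL 1, with values up to 0.0959. The call of Pcdh11x held without CTRL 3 and was lost without any of the other 5 libraries, with values up to 0.187.

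Type I classical cadherins were represented by Cdh2, N-cadherin, the main adhesion protein of neural progenitors, and Cdh4, R-cadherin. Neither passed. Cdh2 was at 6704, 6992 and 6104 in FGF13cko and at 5689, 5887 and 3618 in CTRL (0.41, SE 0.21, limma adjusted p = 0.214), with every FGF13cko value above every CTRL value and CTRL 3 the lowest. Without both replicate 3 libraries the Cdh2 change was 0.24 (limma adjusted p = 0.0368, from the narrow spread of replicates 1 and 2 alone). Cdh4 was at 5760, 5537 and 4810 in FGF13cko and 6366, 6256 and 2609 in CTRL (0.19, limma adjusted p = 0.731), and here CTRL 3 alone lay below the FGF13cko libraries. Cdh1, E-cadherin, and Cdh3 were under the minimum count.

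Of the 13 type II cadherins above the minimum, 4 rose and 0 fell (30.8% higher, beside 7.55% of all genes). Among the 4, Cdh5 reached the minimum through FGF13cko alone, and without it the count was 3 of 12. Cdh11, known from mesenchyme and from the developing brain, was at 1079, 1256 and 1379 in FGF13cko and at 682, 728 and 849 in CTRL (0.72, SE 0.16, limma adjusted p = 0.0229). Cdh19, a cadherin of Schwann cell precursors, was at 490, 564 and 523 in FGF13cko and at 242, 253 and 383 in CTRL (0.87, SE 0.21, limma adjusted p = 0.0293). Both were separated between groups. Cdh9, a synaptic cadherin of the hippocampus, was much rarer, at 53.1, 39.6 and 104 in FGF13cko and 12.2, 13.1 and 20.2 in CTRL (1.96, SE 0.42, limma adjusted p = 0.0210), from 203 reads in FGF13cko and 45 in CTRL. The calls of Cdh9 and Cdh19 held in 1 of the 6 fits that leave out a library, the one without CTRL 3, and otherwise reached 0.0759 and 0.129. The call of Cdh11 was lost without FGF13cko 2, FGF13cko 3, CTRL 1 or CTRL 2, with limma adjusted p up to 0.108.

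Cdh5, VE-cadherin of endothelial cells, was at 26.6, 38.6 and 14.5 in FGF13cko and at 4.07, 1.01 and 0 in CTRL (3.57, SE 0.69, limma adjusted p = 0.0158). It was counted from 82 reads in FGF13cko and 5 in CTRL, a ratio of 15.8 with an exact 95% binomial interval of 6.48 to 49.8 for counting error only. It passed the minimum through the FGF13cko libraries, whose mean was 26.5 against 1.69 in CTRL. Of 8 endothelial markers, 7 were tested and 1, Tek, was higher by limma (14.3%, beside 7.55% of all genes). By the replicate block 4 were higher, where 16.2% of all genes were. All 7 changes were positive, with a median of 1.48, and 5 genes did not overlap between groups. The summed level of all 8 was 304, 461 and 258 in FGF13cko, against 229, 213 and 88.0 in CTRL libraries 1 to 3. Tek was at 32.5, 19.3 and 26.1 in FGF13cko and at 11.2, 4.03 and 3.03 in CTRL, and Pecam1, with the smallest change of the 7, at 22.6, 43.4 and 41.6 in FGF13cko and 25.4, 39.2 and 30.3 in CTRL. Mural and fibroblast markers counted 3 higher of 6 tested, with sums over the 9 listed of 912, 1082 and 2494 in FGF13cko and 285, 320 and 427 in CTRL. The part of these cells in the levels of Cdh5 and Cdh11 was not tested.

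The remaining 9 type II members did not pass in limma on all 6 libraries. Cdh8 came closest, at 59.998, 130 and 169 in FGF13cko and 44.8, 51.3 and 67.8 in CTRL (1.02, limma adjusted p = 0.118, and 0.0209 with the replicate block), and FGF13cko 1 overlapped with the CTRL range. It passed without FGF13cko 1 (limma adjusted p = 0.0352). Cdh20, the most abundant per kilobase of the type, was at 4104, 3894 and 2679 in FGF13cko and 3249, 3206 and 2191 in CTRL (0.30, SE 0.23, limma adjusted p = 0.391, and 0.0146 without both replicate 3 libraries). Cdh22 had the lowest change of the type, -0.38, at 1733, 1645 and 1192 in FGF13cko and 2584, 2390 and 1224 in CTRL (limma adjusted p = 0.406). Without CTRL 3 the Cdh22 change was -0.72 (limma adjusted p = 0.0174), and without both replicate 3 libraries -0.56 (0.0012). For Cdh20 and Cdh22 alike, the values without both replicate 3 libraries rest on the narrow spread of replicates 1 and 2. Cdh6 had -0.33. Cdh10 had 0.06, Cdh24 0.44, Cdh7 0.77 and Cdh18 1.15, the last 2 from low and scattered counts.

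Outside the classical types, Cdh13, a cadherin held by a lipid anchor without a cytoplasmic tail, had a change of 0.02 with wide overlap. Cdh23, the tip-link partner of Pcdh15, was at 37.4, 66.6 and 86.0 in FGF13cko and at 124, 114 and 103 in CTRL (-0.91, SE 0.32, limma adjusted p = 0.0936, and 0.0467 with the replicate block), with no overlap. It was the 1 numbered cadherin with a lower level at an unadjusted p under 0.05. By edgeR and by DESeq2 as well, 1 numbered cadherin was lower at an unadjusted p under 0.05. After adjustment 0 were lower in limma without a block, in edgeR and in DESeq2. The number of cadherins called higher was 0 without FGF13cko 2, 1 without FGF13cko 3, CTRL 1 or CTRL 2, 2 without FGF13cko 1 and 4 without CTRL 3. Cdh5 was not tested without FGF13cko 2, since its mean fell below the minimum, and missed the threshold without FGF13cko 1 (limma adjusted p = 0.0553).

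Other genes of the pathway are given by list, beside the 14.6% called among all genes. Of 9 catenins and other tail partners tested (22.2% called), 1 rose, Jup (plakoglobin, 0.80, limma adjusted p = 0.0281), and 1 fell, Afdn (afadin, -0.56, limma adjusted p = 0.0286). Ctnnb1, beta-catenin, had 0.07. Of 13 atypical and large cadherins (23.1% called), Ret (2.72, limma adjusted p = 0.0040), a receptor kinase with cadherin repeats, and Clstn2 (1.67, limma adjusted p = 0.0129), a synaptic calsyntenin, rose, and Celsr1 (-0.78, limma adjusted p = 0.0421), a planar polarity cadherin, fell. Ret was at 62.0, 116 and 134 in FGF13cko and at 13.2, 14.1 and 15.2 in CTRL. With the replicate block 6 of this list were higher and 1 lower, a share of 53.8% against 30.0% among all genes. Dsc2 (1.01, limma adjusted p = 0.0429) rose among 3 desmosomal cadherins tested. Lists this short move by a large share with each call.

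Of 6 repressors and inducers of classical cadherins, Twist1 rose (1.59, limma adjusted p = 0.0201), at 54.1, 35.7 and 31.9 in FGF13cko and 14.2, 12.1 and 11.1 in CTRL. Of 9 cadherin proteases (22.2% called), the gamma-secretase subunits Aph1b (-0.58) and Aph1c (-1.08) fell. Of 13 protocadherin signalling partners, Ptk2b, the kinase Pyk2, rose (1.75, limma adjusted p = 0.0125), at 181, 307 and 367 in FGF13cko and 64.1, 75.5 and 108 in CTRL. The 16 chromatin regulators listed for the clusters, among them Ctcf (-0.03), which binds promoters and enhancers there, had a median of -0.08. None of the 16 passed by limma in either direction, and 2 were lower with the replicate block.

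In the authors' deposited table of the same comparison, 26 members had an adjusted p under 0.05 with a higher level in FGF13cko and 4 with a lower one. By class in the authors' deposited table these were 17 and 0 of the clustered genes, 5 and 0 of the numbered cadherins and 4 and 4 of the other protocadherins, where all genes counted 1812 higher and 1632 lower of 20641.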

How the data were processed

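RNA of 6 neurosphere libraries was prepared with the NEBNext Ultra kit, which does not mark strand, per the labels' protocols. The authors deposited gene counts divided by size factors, a signal that is not raw. Per the submitters' processing notes STAR, DESeq2 and mm10 were used, with no version given. The values gave whole reads (100% within 0.01), which edgeR 4.0.16 and DESeq2 1.42.0 used as alternatives. Intervals and floors cover counting error only. The main test was limma 3.58.1 (trend) in R 4.3.3 on log2(value + 1) of genes with a mean of at least 10, FGF13cko against CTRL, with Benjamini-Hochberg adjustment. An exact permutation test of 3 against 3 cannot go below 0.1 and was not used. The authors also deposited log2 fold changes, p-values and Wald statistics (a score, the fold change over its standard error), of which only calls were counted. Exons came from GENCODE M21 and promoters from RefSeq, which matched 20 of 79 members. Same-numbered libraries deviated together (correlations 0.36, 0.20 and 0.54), but FGF13cko 1 with CTRL 2 (0.33) and FGF13cko 2 with CTRL 1 (0.26) did so too. These values set replicate 3 apart and do not pair replicates 1 and 2 by number. No label says what a number marks, so fits with the replicate block are given as an alternative only. Named genes were the called members of the small classes, the most abundant of each class, and up to 3 called per cluster; others were picked after their values were seen. Members and lists were chosen with earlier results of these data known.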

Additional observations from a re-analysis of the deposited data

How the results depend on the processing

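Of 23 named genes, all kept their sign under both pseudocounts (0.5 and 5), edgeR, DESeq2, TMM-scaled limma, the replicate block, the absence of a filter and, for the 19 tested, a minimum of 50. Pcdhac2 changed sign without FGF13cko 1 (0.040), CTRL 1 (0.017) or CTRL 2 (0.045), with a range of -0.34 to 0.045, and Pcdhgc3 without CTRL 3 (-0.035, with 0.23 as the highest value); Pcdhac2 was at -0.43 without both replicate 3 libraries. With the replicate block, 2723 genes were higher and 2341 lower, with 24 clustered members higher, 4 other protocadherins lower and 1 numbered cadherin lower. DESeq2 gave 1998 and 1973 genes, 20 clustered members higher and 4 other protocadherins lower. EdgeR and TMM-scaled limma also gave 4 other protocadherins lower. A minimum of 50 left 2 numbered cadherins higher. Without a filter 6 clustered members were higher and 1 other protocadherin lower. Leaving out single libraries gave 193 to 2228 genes higher and 276 to 2145 lower, 0 to 4 numbered cadherins higher and 0 to 1 lower, 0 to 19 clustered members higher, and 0 to 3 other protocadherins higher and 0 to 4 lower. Without both replicate 3 libraries these were 3111 and 3034 genes, 24 clustered members higher and 1 lower, 2 cadherins lower and 5 other protocadherins lower. The cause was not tested. Counts under about 20 per library, as in Pcdha6, Cdh12 and the CTRL libraries of Cdh5, limit precision.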

Other observations

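Cdh26, a cadherin under the minimum of the test, was at 5.90, 9.65 and 10.6 normalized counts in FGF13cko and was listed at 0 in all 3 CTRL libraries. It was picked after its values were seen.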
